A study of Mus musculus with 2 samples.

Results

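Atp2a1, Pvalb and Trdn are 3 genes of calcium cycling in skeletal muscle fibres. They were taken from the authors' deposited table of an array study of mouse fat, by gene symbol, from the 800 genes that the table names singly. They have 9 of its 869 probes: 1 each for Atp2a1 and Pvalb, and 7 for Trdn. They were selected on their signals, which were higher in H4-TG than in WT on the same 2 arrays, so their differences are given as a description and not as a test. The tissue was inguinal white adipose tissue, the fat pad under the skin of the groin, of male mice aged about 8 weeks, fed chow and kept at room temperature. Wild-type (WT) mice were compared with transgenic mice labelled H4-TG. The sources used here give neither what H4 stands for nor the promoter that drives the transgene. Each genotype is a pool of RNA from 4 animals on 1 array, so there are 2 arrays, no spread between animals and no p-value. Precision is limited throughout by this number of arrays. In pooled bulk tissue, more cells of a type and more RNA per cell cannot be told apart.

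In a muscle fibre, a voltage sensor in the surface membrane opens the ryanodine receptor, and calcium leaves the sarcoplasmic reticulum and binds troponin C, which starts contraction. Triadin, encoded by Trdn, sits in the membrane of the reticulum and ties the receptor to calsequestrin, which holds calcium inside. Parvalbumin, encoded by Pvalb, binds calcium in the cytosol of fast fibres and speeds relaxation, and some neurons make it too. The pump SERCA1, encoded by Atp2a1, returns calcium to the reticulum and is the main pump of fast fibres. White adipocytes are not known for this apparatus. In beige adipocytes a heat-producing calcium cycle has been described that runs through another pump and another channel, those of Atp2a2 and Ryr2.

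The stretch before the start of transcription is shown for Atp2a1 and Pvalb. For Trdn the sources used here give no such stretch. The sequences are from RefSeq, build GRCm38.p6, minus strand, 250 bases that end just before an annotated start, read 5′ to 3′. The Atp2a1 stretch lies at chr7:126463074-126463323, and its last 30 bases fall inside the gene as RefSeq bounds it, so a start further out is annotated too. The outer of 2 annotated Pvalb starts lies at chr15:78206401-78206650. Capitals mark matches on either strand to the E-box CANNTG, which myogenic factors and many others bind, and to the MEF2 site.
Atp2a1: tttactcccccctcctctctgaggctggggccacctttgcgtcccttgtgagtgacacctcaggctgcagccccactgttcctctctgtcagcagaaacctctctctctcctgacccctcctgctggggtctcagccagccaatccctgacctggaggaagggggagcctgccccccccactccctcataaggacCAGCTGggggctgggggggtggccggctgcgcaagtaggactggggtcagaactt
Pvalb: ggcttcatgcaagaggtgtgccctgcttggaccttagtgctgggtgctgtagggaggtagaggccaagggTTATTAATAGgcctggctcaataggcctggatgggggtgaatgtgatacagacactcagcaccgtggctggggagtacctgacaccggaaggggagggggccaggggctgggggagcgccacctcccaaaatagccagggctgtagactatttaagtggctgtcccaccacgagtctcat

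The Atp2a1 stretch held 1 E-box, in the form CAGCTG, 55 to 50 bases before the start. Of 32851 such stretches of mouse genes, 66.2% held CANNTG and 13.0% held CAGCTG, which is a case of CANNTG. The outer Pvalb stretch held no E-box and 1 match to the MEF2 site, 180 to 171 bases before the start, and 2.92% of all stretches held such a match. The stretch before the inner Pvalb start held 1 E-box and no MEF2 match. Neither TATAAA nor the CArG box was found in any of these 3 stretches, against 12.4% and 1.47% of all. These matches describe letters only.

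The 2 arrays had similar median signals over 35556 probes, 6.34 for WT and 6.31 for H4-TG. Here a probe means 1 transcript cluster identifier of the array, so a span given for a probe is that of the cluster. Values are log2 signals as deposited, in which a step of 1 is a doubling, and differences are H4-TG minus WT. Signals of different probes are not set against each other as amounts of RNA. Above the median mean signal of 6.31, used here as a signal minimum, 112 of 17778 probes (0.630%) had an H4-TG signal at least 2-fold above that of WT. The mean is over both arrays, so a high H4-TG signal alone can lift a probe above this minimum. All 9 member probes were at least 2-fold higher as deposited, and 8 of 9 under quantile normalization or centring along signal level. Of the 9, 6 were above that minimum. The choice of the members used these same differences, so nothing is read from this count.

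Atp2a1, which refills the reticulum after each twitch, had a log2 signal of 8.16 on WT and 11.20 on H4-TG. Its difference of 3.04, or 8.23-fold, ranked 7 of 35556 probes. In the authors' deposited table its probe, 10567879, spans chromosome 7 from 133589374 to 133606618, with no genome build stated.

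Pvalb, the cytosolic buffer, had a log2 signal of 6.85 on WT and 10.20 on H4-TG. The difference was 3.35, or 10.2-fold, and ranked 2 of all probes. Its probe is 10430297.

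Trdn, the link between channel and store, has 7 probes in the table, and each was higher on the H4-TG array. In the order of their positions along chromosome 10, the probe 10362404, which spans 32803346 to 32953798 in the authors' deposited table, had 5.60 on WT and 8.00 on H4-TG. The next, 10362418, had 2.62 and 5.57, the lowest WT signal of the 7. The probe 10362420, with the highest mean signal of the 7, had 6.51 and 9.58, a difference of 3.08 or 8.44-fold that ranked 5 of all probes. These 3 probes at the low end of the gene's positions differed by 2.40 to 3.08.

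Further along, the probe 10362432 had 7.13 on WT and 8.26 on H4-TG, a difference of 1.13 although its WT signal was the highest of the 7. The probe 10362436 had 4.84 and 7.58, a difference of 2.74, and 10362446 had 6.18 and 7.78, a difference of 1.61. The last, 10362458, spans 33186229 to 33194324 in the authors' deposited table and had 3.34 and 4.35, or 2.01-fold. The 7 differences thus ran from 1.01 to 3.08 with a median of 2.40, or 5.29-fold. Their size did not follow the WT signal, and probes with large and small differences lay side by side.

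Of the 7 Trdn probes, 5 span only 48 to 54 bases of the genome, and the sources used here do not say which exons or transcript forms they read. On the WT array 2 of the 7 were above that array's median signal, and on the H4-TG array 5 of 7 were above its median. Only 4 of the 7 passed the signal minimum, so the gene is described by all of its probes and not by those alone.

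**Figure D1:**
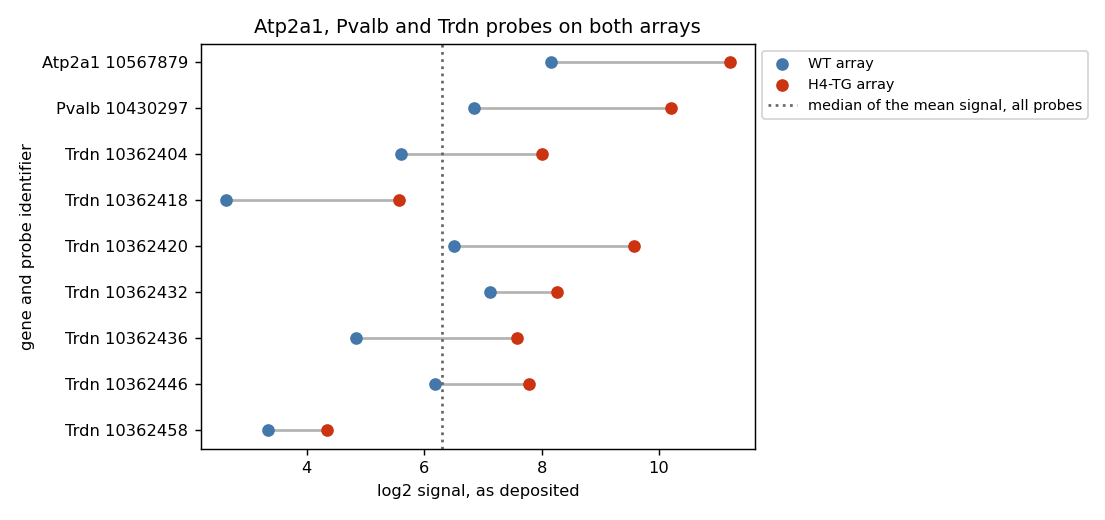
Log2 signal (x axis, as deposited) of each probe of Atp2a1, Pvalb and Trdn (y axis) on WT (blue) and H4-TG (red), 1 array per genotype. Every red point lies to the right of its blue point, and the gap runs from 1.01 for the Trdn probe 10362458 to 3.35 for Pvalb.

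The identifiers of the 7 Trdn probes increase with their positions, and 12 further identifiers of the array fall between the first and the last of them. The files give these 12 no gene, and they are described here by their place among the Trdn probes. Of the 12, 7 had at least a 2-fold higher signal on H4-TG, with differences of 1.41 to 3.22, where 0.892% of all 35556 probes were that much higher without a signal minimum. The unnamed probe next after the Trdn probe 10362420 had 5.95 on WT and 9.17 on H4-TG, or 9.30-fold. The unnamed probe between the Trdn probes 10362432 and 10362436 had 6.77 on WT and 9.37 on H4-TG, or 6.03-fold. Both differences lie in the range of the Atp2a1, Pvalb and larger Trdn differences.

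The other 5 of the 12 differed by -0.13 to 0.94. They had signals of 1.93 to 3.44 on WT and 2.07 to 3.6 on H4-TG, where the lowest 5% of probes on the WT array lay under 2.96. None of the 12 is in the authors' deposited table, in which every row has a symbol. Across the array above the signal minimum, 6 probes with identifiers from 10344674 upward, the lowest in the authors' table, were at least 2-fold higher without being listed there, and 4 of these 6 fall among the 12. Of these 4, those at 5.95, 6.10 and 5.96 on WT passed the minimum of 6.31 only through their H4-TG signal. Without a minimum there were 32 such unlisted probes, and 7 of them fall among the 12. Of the 3 nearest identifiers on each side of the Trdn run, 1 of 6 was at least 2-fold higher, namely 10362462 with 2.15 on WT and 4.95 on H4-TG. The other 5 differed by at most 0.32 in size. Whether any unnamed probe reads Trdn was not tested, since the files hold no probe sequence or position for it.

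**Figure D2:**
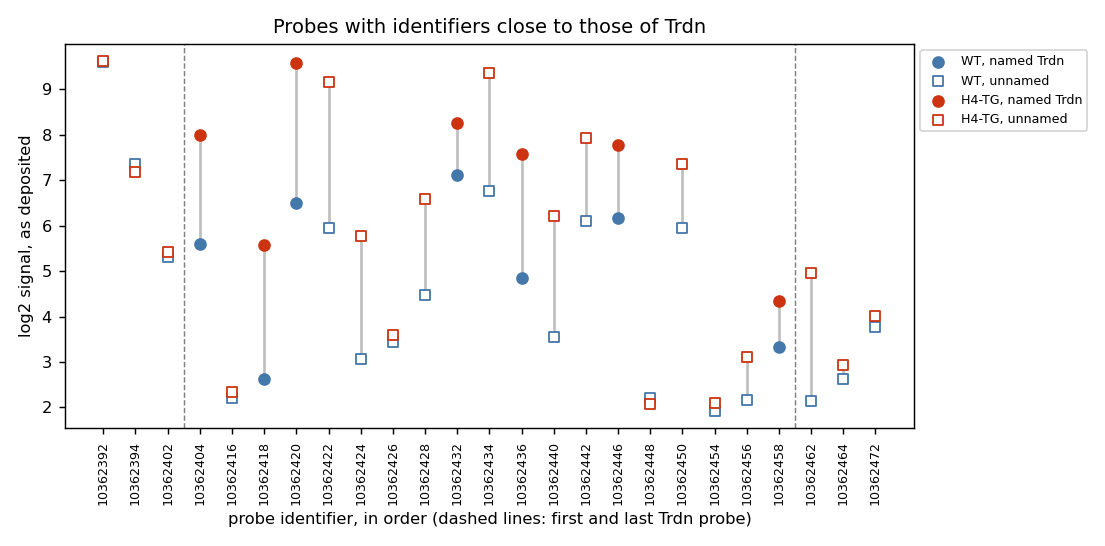
Log2 signal (y axis, as deposited) of the 19 probes from the first to the last Trdn identifier and of the 3 next identifiers on each side, in identifier order (x axis). Filled circles are named Trdn and open squares are unnamed, blue for WT and red for H4-TG. Of the 12 unnamed probes among the 19, 7 were at least 2-fold higher on the H4-TG array, where 0.892% of all 35556 probes were. The 7 named Trdn probes were selected as higher, so they are left out of this count.

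The rest of the calcium apparatus was read from a list of 41 genes, of which 17 are in the authors' deposited table, 14 of them besides the 3 members. That table has no fold ratio under 1.5, so for a gene outside it no value can be given. With the brightest probe standing for each gene, 11 of the 17 were at least 2-fold higher and above the signal minimum, 8 of them besides the 3 members. With a minimum that keeps the top 40% of probes the count was 7. Both minimums are set on the mean of both arrays. On WT alone, Cacna1s (5.71), Jph1 (5.76), Sypl2 (6.13), Ryr1 (6.17) and Srl (6.26) lay under 6.31. They passed the median minimum only through their H4-TG signal, and the other genes among the 11 lay above it on both arrays. Of all 800 genes named in the table, 69 (8.62%) were at least 2-fold higher and above the median minimum. The median difference was 1.27 over the 17 listed genes, 1.02 over the 14 besides the members, and 0.71 over the 800 named genes. These medians cover only genes that the table lists as higher, and the list was written with earlier results of these data known.

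Among the voltage sensor genes, 2 of 5 were listed, both past 2-fold. Cacna1s, the pore of the sensor in skeletal muscle, had 5.71 on WT and 7.17 on H4-TG, or 2.74-fold. Its accessory subunit Cacna2d1 had 7.19 and 8.22, or 2.03-fold, and a dimmer probe of the gene differed by 0.95.

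Of 8 genes of the release channel and its partners, 3 were listed. Ryr1, the release channel of skeletal muscle itself, had 6.17 on WT and 8.27 on H4-TG, or 4.29-fold. Its difference of 2.10 lies within the range of the 7 Trdn probes, 1.01 to 3.08 with a median of 2.40. Jsrp1, a protein of the junctional reticulum, was 1.53-fold higher and below the signal minimum. Ryr2 and Ryr3, the other ryanodine receptors, have no value here.

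All 3 genes of the junction between surface membrane and reticulum were listed. Junctophilin 1 (Jph1), which holds both membranes together in skeletal muscle, had 5.76 on WT and 7.17 on H4-TG by its brightest probe, a difference of 1.41, and its other probe differed by 0.78. Sypl2, a synaptophysin-like protein of this junction, had 6.13 and 7.14, or 2.01-fold. Junctophilin 2 (Jph2), known best from the heart, differed by 0.60 (1.52-fold) at its brightest probe and by 0.67 at the other.

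Inside the reticulum, calsequestrin 1 (Casq1), the store protein of fast fibres that triadin binds, had 6.71 on WT and 9.37 on H4-TG, or 6.31-fold. This was the largest difference on the list outside the 3 members. Sarcalumenin (Srl), another calcium-binding protein of the reticulum, had 6.26 and 7.53, or 2.41-fold. Casq2, the calsequestrin of heart and slow fibres, is among the 4 of 6 store genes with no value.

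Among 7 pumps and pump regulators only Atp2a1 and Mrln were listed. Myoregulin (Mrln, under an older name in the table), a micropeptide that inhibits the pump in muscle, had 5.26 on WT and 6.0 on H4-TG, or 1.68-fold, below the signal minimum. Atp2a2, the pump of slow fibres, heart and most other cells, has no value here, and neither have Atp2a3 and the inhibitors Sln and Pln. With Ryr2 also missing, the pump and channel of the cycle described in beige fat are both without a value.

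Of 8 genes that bind or sense calcium in the cytosol, 4 were listed. Tnnc2, the troponin C of fast fibres, had 6.98 on WT and 9.38 on H4-TG, or 5.28-fold. Tnnc1, its form in slow fibres and heart, had 5.40 and 6.24, or 1.78-fold, below the signal minimum. The calmodulin-dependent kinase Camk2a was 1.66-fold higher and below the minimum. Of 4 genes that move calcium across the surface membrane, only the exchanger Slc8a3 was listed, at 1.54-fold and below the minimum.

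**Figure D3:**
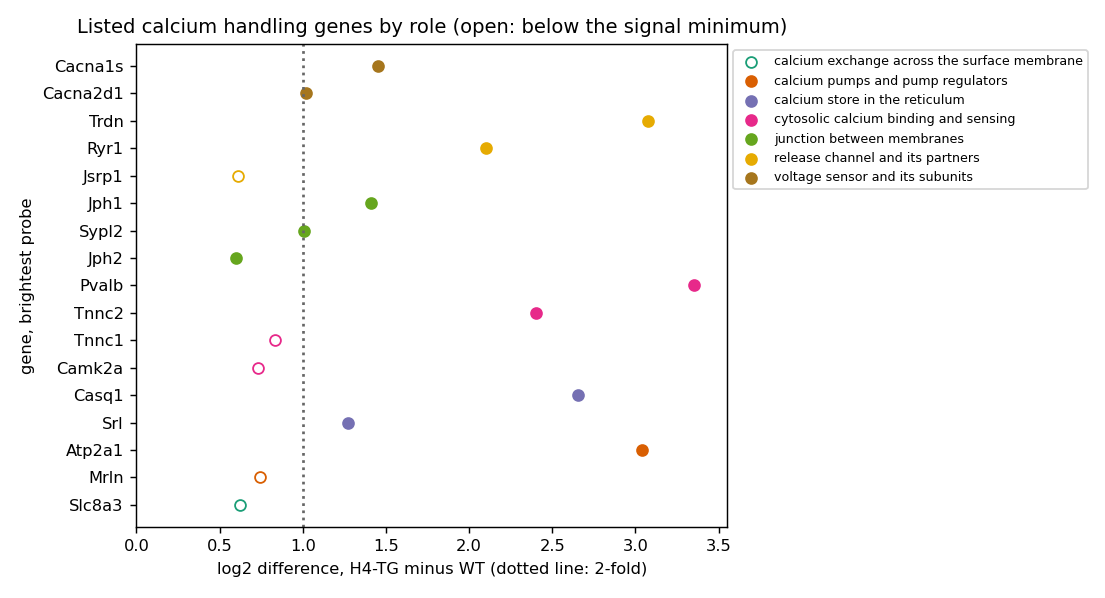
Log2 difference, H4-TG minus WT (x axis), of the 17 listed calcium handling genes (y axis), brightest probe per gene, coloured by role; open points are below the signal minimum and the dotted line marks 2-fold. Pvalb, Trdn and Atp2a1 lie beyond 3, and Casq1, Tnnc2 and Ryr1 follow between 2.10 and 2.66. Trdn is placed by the probe with the largest difference of its 7, whose median is 2.40.

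The members were set beside markers of the cells that the pad can hold. Of 25 skeletal muscle markers, 24 were listed, Tnnt1 being the exception, and 19 were at least 2-fold higher with no signal minimum, where 0.892% of all probes were. Above the minimum 17 were, where 0.630% of probes were. Their differences ran from 0.66 to 3.06 with a median of 2.26. The sum of the linear signals of the 24 was 3954 on WT and 19351 on H4-TG, 4.89 times as much. This sum is weighted towards the brighter probes and is not an amount of muscle RNA. Atp2a1 was exceeded in its difference by 1 of these markers, fast troponin T (Tnnt3, 3.06), and Pvalb by none. The brightest Trdn probe, which also has the largest difference of the 7, was exceeded by none either, but the Trdn median of 2.40 was exceeded by 11 of the 24. What part muscle RNA has in the member differences was not tested.

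All 9 fast fibre markers were at least 2-fold higher with no signal minimum, and 8 of them lay above it. Their differences ran from 2.03 to 3.06. Of 8 slow fibre markers, 5 were listed and none reached 2-fold, with differences of 0.71 to 0.99. All 5 slow fibre probes lay below the signal minimum. That minimum is set on the mean of both arrays, so a high H4-TG signal can lift a fast gene above it. Myh1, Mylpf and Mybpc2 passed it only in this way. On WT alone the slow fibre probes lay at 4.44 to 5.65. The fast genes Myh1 and Myh2 lay in that range too, with differences of 2.84 and 2.13, and the other fast genes lay above it. Whether signal level has a part in the difference between fast and slow genes was not tested. The troponin C genes, which stand on the calcium list as well, are an example of that difference, with Tnnc2 at 2.40 and Tnnc1 at 0.83. The whole difference between fast and slow genes rests on 1 array per genotype and has no replicate check.

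Of 6 cardiac markers only Actc1 was listed, at 1.51-fold. The myogenic regulators Myf6 (2.19-fold), Myod1 (1.59-fold) and Myog (1.57-fold) were listed, all below the signal minimum. Myf5 and Pax7, which mark precursor cells, were not. Of 8 brown or beige markers 3 were listed, and only Ucp1 passed 2-fold, at 6.97 on WT and 8.35 on H4-TG (2.60-fold). Cox8b was 1.73-fold and Cox7a1 1.72-fold higher. None of 8 white adipocyte markers and none of 6 nerve and neuron markers was listed. The table shows only higher probes, 869 of the array's 35556, so this leaves the labelled tissue unchecked and gives neither list a level.

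**Figure D4:**
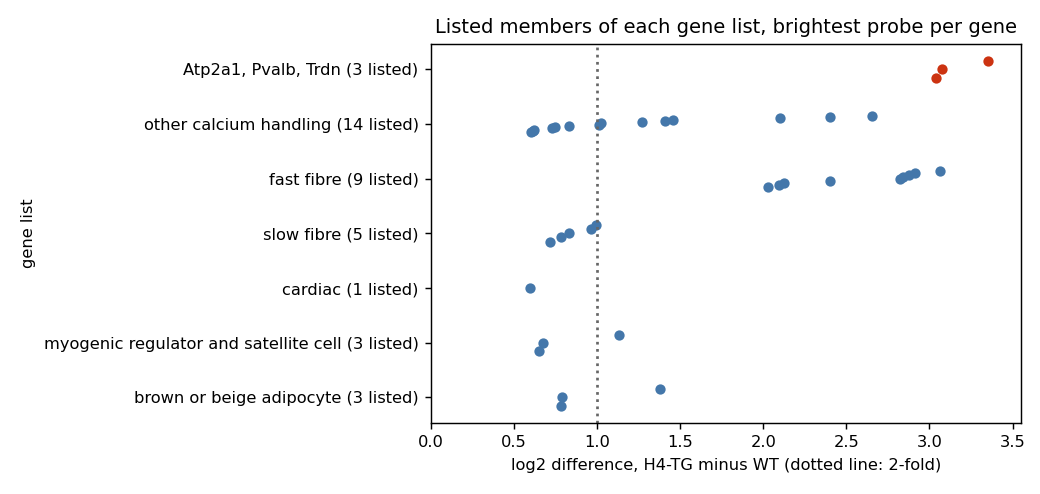
Log2 difference, H4-TG minus WT (x axis), of every listed gene of 7 gene lists (y axis), brightest probe per gene, with the dotted line at 2-fold; points are offset vertically only to keep them apart. The 3 members (red) lie at and beyond the upper end of the 9 fast fibre markers, whose highest is 3.06, and the 5 slow fibre markers lie below 1. Trdn is placed by the probe with the largest difference of its 7, whose median is 2.40.

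Likeness was measured as the distance between genes in their pair of log2 signals, over the 2 arrays. The 5 named genes nearest to Atp2a1 were Ckm, Acta1, Myh4, Tnnt3 and Eno3, at distances of 0.26 to 0.99. Nearest to Pvalb were Neb, Ttn, Actn3, Pygm and Tnnt3, at 0.42 to 0.73. Nearest to the brightest Trdn probe were Casq1, Neb, Tnnc2, Mybpc2 and Ttn, at 0.30 to 0.62. Ckm, Eno3 and Pygm encode muscle enzymes of energy metabolism, and the others besides Casq1 encode proteins of the contractile apparatus. Apart from Casq1, all of these are on the list of skeletal muscle markers. Closeness in signal depends on the probes as well as on the RNA, and the distance uses the same values on which the members were selected, among genes that are all listed as higher. It is given as a description only.

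**Figure D5:**
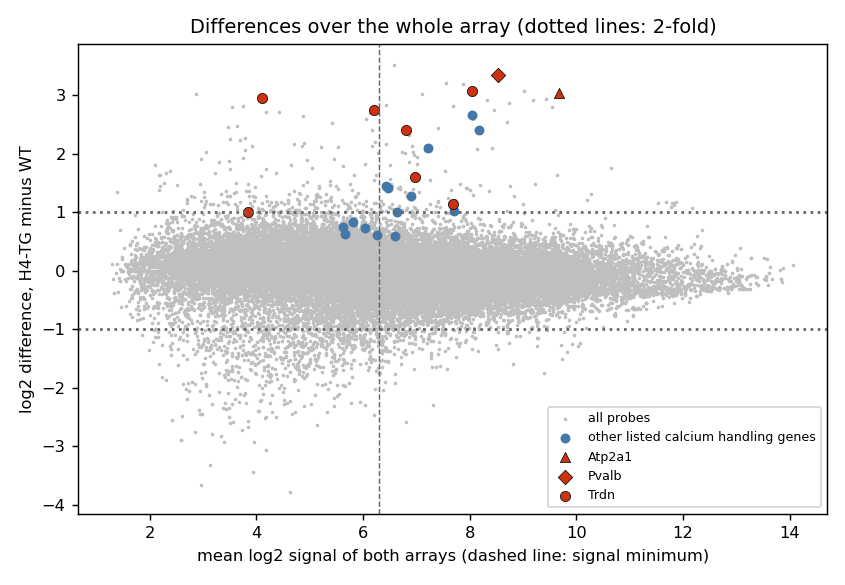
Log2 difference, H4-TG minus WT (y axis), against the mean log2 signal of both arrays (x axis) for all 35556 probes (grey), the other listed calcium handling genes (blue) and the probes of Atp2a1, Pvalb and Trdn (red). Dotted lines mark 2-fold and the dashed line the signal minimum of 6.31. The 9 member probes lie at or above the upper dotted line, and 3 Trdn probes lie to the left of the dashed line.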

How the data were processed

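Biotin-labelled RNA was hybridised to mouse gene arrays, per the labels' protocols. The deposited value table holds 1 log2 signal per probe and array. The submitters' processing notes name MAS5. Its version and settings, and any scaling of the 2 arrays to each other, are not stated in the sources. The authors also deposited rounded log2 signals and a linear fold ratio for 869 probes, per the file headers. All of these signals lay within 0.005 of the value table. The control column of that table, headed CON, was taken as WT.

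The report uses the log2 signal of H4-TG minus that of WT. Gene names came from the authors' table alone. Of its rows 822 carry 1 symbol, updated through mouse RefSeq genes of GRCm38.p6, with matches for 746 through an accession, 46 through the symbol and 10 through a synonym, and none for 20. The brightest probe stood for a gene. Named genes were the members, both unnamed probes, every listed gene of the calcium list and the markers beside them. The 5 genes nearest to each member, other members left out, were named too. The members and lists were chosen with earlier results of these data known. Alternatives were median centring, quantile normalization, centring along signal level (lowess, span 0.3), other signal minimums, a 1.5-fold threshold and other summaries of the Trdn probes. The scalings were run on simulated arrays with simple noise, as a check of the code and not of the values given here. Python 3.11.15, numpy 2.4.6, pandas 2.3.3, statsmodels 0.14.6 and matplotlib 3.10.9 were used.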

Additional observations from a re-analysis of the deposited data

How the results depend on the processing

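Each genotype is 1 array of pooled RNA, so no array could be left out and no difference has an error. A member value was taken as unmoved within 0.1 on the log2 scale, a tolerance that is not a replicate error. Of 17 member values under the alternatives 13 stayed within it. Atp2a1 was 3.16 after quantile normalization and the brightest Trdn probe 3.18 after centring along signal level, and Trdn was 2.13 as the mean and 2.40 as the median over its named probes. The lowest Trdn probe, 10362458, fell under 2-fold, to 0.99 with quantile normalization and 0.91 with centring along signal level. Members come from a table of higher probes, so the lack of a change in sign is no sign of stability. The calcium list count was 7 with a minimum that keeps the top 40% of probes, since 4 of the 11 genes are dimmer than that. Over all probes above the median minimum, 112 were at least 2-fold higher and 166 lower. These counts were 317 and 844 without a minimum, 72 and 95 with the stricter minimum, 410 and 1117 at 1.5-fold, and 89 and 71 without the lowest identifiers, below 10344674. Higher probes made up 40.3% of those past 2-fold as deposited, 44.3% after median centring, 51.2% with quantile normalization and 50.0% with centring along signal level. These shares include the lowest identifiers, and without those the higher probes outnumbered the lower ones as deposited, 89 against 71. No paired analysis was possible because there is only 1 array of each genotype.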
